A study of Mus musculus with 24 samples.

Results

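The step from pro-B cells to small pre-B cells was followed here in mouse bone marrow that lacked Ki-67, with 8 of the 24 libraries of the series. These were the 4 libraries of Mki67-/- pro-B cells and the 4 libraries of Mki67-/- small pre-B cells, chosen by their labels alone. The series profiled open chromatin by ATAC-seq, in which the transposase Tn5 cuts and tags accessible DNA, in cells sorted at 3 stages (pre-pro-B, then pro-B, then small pre-B) from wild-type (WT) and Mki67-/- mice, with 4 libraries a group. All groups were labelled as lymphoid progenitors from bone marrow; strain, age, sex, the sorting markers and the part of Mki67 that was deleted are not given in the sources used here. Whether each library came from its own mouse is not stated, and every p-value therefore rests on the variation among these libraries, which may be technical. The deposited measurements were lists of peaks, stretches of DNA with more cuts than the local background, each with a fold enrichment and a -log10 q value from the authors' peak caller. In each library the 40000 peaks with the highest -log10 q were kept after overlapping entries were merged, and peaks were counted over loci and over genes (body and 10 kb on each side). The WT pro-B and WT small pre-B libraries (4 each) served only as the comparison for the same step with Ki-67 present.

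Ki-67, the product of Mki67, is a nuclear protein of dividing cells that coats mitotic chromosomes. Pro-B cells join V, D and J segments at the immunoglobulin heavy-chain locus Igh. A productive heavy chain pairs with the surrogate light chain to form the pre-B receptor, cells divide as large pre-B cells, and small pre-B cells then leave the cycle and join V to J segments at the light-chain loci Igk and Igl. Rag1 and Rag2 cut DNA only where chromatin is open, so the accessibility of each antigen-receptor locus is a known control point of these stages.

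Mki67 itself held 1 peak in each of the 8 libraries, which does not check the deletion, since its position is not given. The B-lineage gene Cd79a, which encodes a signalling chain of the B-cell receptor, held 6 to 7 peaks in every library, while no library had a peak over the T-cell genes Cd3e and Cd8a, the myeloid genes Lyz2 and Ly6g or the erythroid regulator Gata1. Most other markers of those cell types did hold peaks. Only 5 of 20 T- and NK-cell genes, 6 of 20 myeloid genes and 2 of 16 erythroid genes held none in any of the 8 libraries. The sums of peaks over each list are given with the lists. The merged deposited lists held 74484 ± 2682 peaks per pro-B library and 65298 ± 7900 per small pre-B library (mean ± SD, n = 4 each; exact permutation test, two-sided p = 0.0571), which is why equal numbers of peaks were compared. The library small pre-B 1 stood apart, with the fewest peaks (54387) and the lowest background coverage recovered from the deposited values (1.86 reads, against 2.08 to 3.73 in the other 7). In bulk samples of this kind, fewer cells of a type and less accessibility per cell cannot be told apart.

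Among the 40000 strongest peaks, the light-chain loci gained peaks and the heavy-chain locus lost peaks between the stages. Over Igk (mm10 chr6:67555636-70726754, 168 annotated segments), pro-B libraries 1 to 4 held 29, 29, 25 and 21 peaks and small pre-B libraries 1 to 4 held 162, 150, 152 and 148. Every small pre-B library was far above every pro-B library, and the means were 26.0 ± 3.83 and 153 ± 6.22 peaks (SD, n = 4 each). Over Igl, the smaller lambda light-chain locus (chr16:19061752-19260844, 12 segments), each pro-B library held 5 peaks and the small pre-B libraries held 13, 12, 14 and 12. Over Igh (chr12:113256204-116009954, 215 segments), pro-B libraries held 110, 106, 108 and 111 peaks and small pre-B libraries 47, 54, 44 and 48, again without overlap. The Igh means were 108.75 ± 2.22 and 48.25 ± 4.19, and small pre-B libraries thus still held 44 to 54 heavy-chain peaks.

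**Figure D1:**
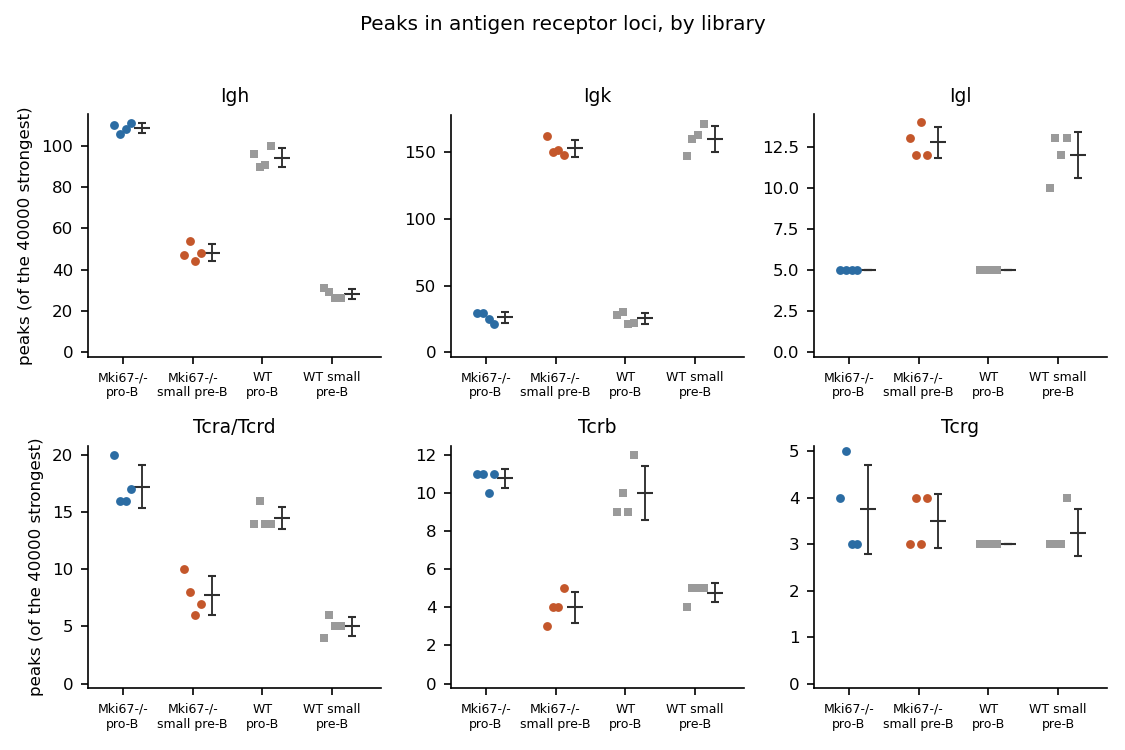
Number of peaks among the 40000 strongest of each library (vertical axis) over 6 antigen-receptor loci, with 1 point per library, bars for the mean ± SD of 4 libraries, and the WT groups as grey squares. Igk rose from 21 to 29 peaks in Mki67-/- pro-B libraries to 148 to 162 in small pre-B libraries, while Igh fell from 106 to 111 peaks to 44 to 54.

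The T-cell receptor loci, which do not encode B-cell receptors, also lost peaks at 2 of the 3 loci examined. Tcra/Tcrd (chr14:52427967-54224198) held 20, 16, 16 and 17 peaks in pro-B libraries and 10, 8, 6 and 7 in small pre-B libraries. Tcrb (chr6:40891296-41558371) held 11, 11, 10 and 11 peaks against 3, 4, 4 and 5. In both loci the stages did not overlap, whereas Tcrg (chr13:19178042-19352343) held 3 to 5 peaks in pro-B and 3 to 4 in small pre-B libraries. For Igh, Igk, Igl, Tcra/Tcrd and Tcrb the exact permutation test gave p = 0.0286, the smallest that 4 against 4 libraries allow, and 0.0343 after Benjamini-Hochberg adjustment over the 6 loci. For Tcrg, p was 1 by the same exact test. Among the 20000 strongest peaks Igk still rose, by 55.5 peaks, and Igh changed by -18.75, but neither passed the adjustment (exact permutation test, adjusted p = 0.0857).

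The same step in WT cells moved each locus the same way. WT means went from 25.25 to 160.25 peaks at Igk, from 5 to 12 at Igl, from 94.25 to 28 at Igh, from 14.5 to 5 at Tcra/Tcrd and from 10 to 4.75 at Tcrb. No locus passed a test of the difference between the Mki67-/- step and the WT step (permutation test, lowest adjusted p = 0.793 for peak counts and 0.19 for log2 counts, a scale added after seeing the data). That test, with 4 libraries a group, does not show that the steps were equal.

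At Igk, many V segments went from no peak to a peak. Of 102 Igk V segments, 12, 11, 9 and 8 had a peak within 500 bp in the pro-B libraries and 66, 64, 65 and 63 in the small pre-B libraries (10.0 ± 1.83 and 64.5 ± 1.29; exact permutation p = 0.0286). A peak was absent from all 4 pro-B libraries and present in all 4 small pre-B libraries at 43 segments, and no segment showed the reverse. Another 31 had no peak in any library, 20 varied between libraries of a stage, and 8 had a peak in all 8 libraries. Those 8 were Igkv2-137, Igkv1-135, Igkv9-129, Igkv9-124, Igkv9-123, Igkv2-109, Igkv15-103 and Igkv1-35. The numbers of segments in the 4 small pre-B libraries lay within 3 of each other.

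Peaks at Igk segments are listed here by V family, with no test between families. Over all 102 segments, 43 had none in any pro-B library and a peak in all 4 small pre-B libraries. None of the 28 Igkv4 segments had a peak in all 4 pro-B libraries and 7 had one in all 4 small pre-B libraries, while 13 had none in any small pre-B library. Among 11 Igkv8 segments the numbers with a peak in all 4 libraries were 0 and 6, among 9 Igkv6 segments 0 and 7, and among 6 Igkv12 segments 0 and 5. Among 10 Igkv1 segments they were 2 and 6, and among 9 Igkv3 segments 0 and 6. None of the 5 Igkv5 segments had a peak in all 4 libraries of either stage, whereas 3 of 4 Igkv9 segments already had one in pro-B cells. When the 102 segments were divided by position into 3 blocks of 34, a mean of 8.5, 0 and 1.5 segments per pro-B library had a peak from the lowest to the highest coordinates, and 27.5, 14.75 and 22.25 per small pre-B library. The middle block thus began with none and stayed lowest.

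**Figure D2:**
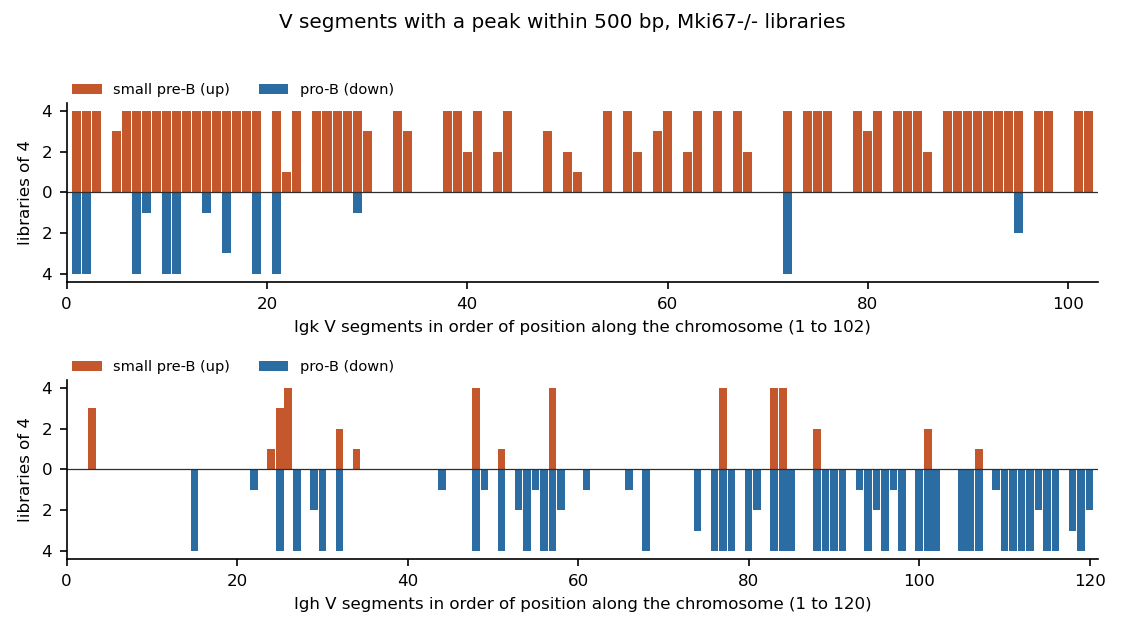
V segments in order of position along the Igk locus (top, 102 segments) and the Igh locus (bottom, 120 segments), with bars upward for the number of small pre-B libraries (0 to 4) and downward for the number of pro-B libraries with a peak within 500 bp. At Igk 43 segments had bars only upward in all 4 libraries, and at Igh 27 segments had bars only downward in all 4.

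At Igh the V segments followed the opposite course. Of 120 Igh V segments, 49, 45, 44 and 43 had a peak in pro-B libraries and 10, 13, 7 and 10 in small pre-B libraries (45.25 ± 2.63 and 10.0 ± 2.45; exact permutation p = 0.0286). A peak present in all 4 pro-B libraries was absent from all 4 small pre-B libraries at 27 segments, 1 segment (Ighv11-2) showed the reverse, 27 varied and 60 had no peak in any library. In the large Ighv1 family of 60 segments, 26 had a peak in all 4 pro-B libraries and 2 in all 4 small pre-B libraries. Most of the loss lay in the block of 40 segments farthest from the constant genes, where the mean fell from 26.5 to 3.25 segments per library. In the middle block of 40 it went from 13 to 3.25, and in the block nearest the constant genes from 5.75 to 3.5.

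The 5 Igh segments that kept a peak in all 8 libraries were Ighv8-2, Ighv1-12, Ighv8-4, Ighv8-6 and Ighv1-54. In WT small pre-B cells, Ighv8-2 had a peak in 0 of 4 libraries and Ighv1-12 in 3 of 4. WT means went from 40.5 to 3.75 segments at Igh and from 10.75 to 70.5 at Igk, and the difference from the Mki67-/- step did not pass (permutation test, adjusted p = 0.729 and 0.163). A segment without a peak here means one without a peak among the 40000 strongest. With all deposited peaks, which are not equal in number, small pre-B libraries had peaks at 18, 57, 30 and 46 Igh V segments, and the lowest number was in small pre-B 1. The Igh means then went from 84 to 37.75 segments in Mki67-/- and from 80.25 to 11 in WT cells. The difference between those steps did not pass (permutation test, adjusted p = 0.203).

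Across the genome, the 8 libraries defined 55266 regions that held a peak in at least 1 library. A region absent from all 4 pro-B libraries and present in all 4 small pre-B libraries was counted as gained, and there were 3648 of these (6.6% of all regions). The reverse, counted as lost, held for 3741 regions (6.77%), and 25226 (45.6%) were present in all 8 libraries. For each pair of libraries, the length of DNA covered by both lists of 40000 peaks was divided by the length covered by either. This share was 0.752 to 0.821 within pro-B, 0.748 to 0.811 within small pre-B and 0.562 to 0.635 between the stages. Libraries of 1 stage were therefore always closer to each other than to any library of the other stage. The antigen-receptor loci contributed few of the gained and lost regions. Igk had 102 gained and 0 lost, Igl 7 and 0, Igh 3 and 41, Tcra/Tcrd 0 and 5, and Tcrb 0 and 4. The 1-Mb windows with the most gained regions were nonetheless the 3 windows of Igk on chromosome 6 (38, 30 and 27), and the window with the most lost regions lay in Igh on chromosome 12 (26).

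**Figure D3:**
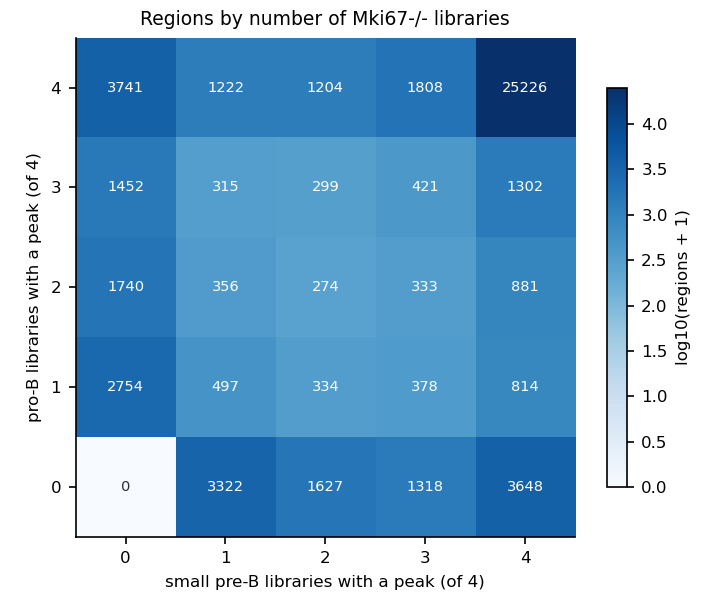
Number of regions by how many of the 4 pro-B libraries (vertical axis) and how many of the 4 small pre-B libraries (horizontal axis) held a peak there. The corners are the 3648 gained, 3741 lost and 25226 constant regions.

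Gained and lost regions lay away from gene ends. Only 7.79% of gained and 10.0% of lost regions were within 1 kb of either end of a coding gene, against 40.2% of constant regions and 24.6% of all regions. Of the rest, many lay inside genes: 50.3% of gained and 50.0% of lost regions were in gene bodies, against 32.8% of constant and 41.5% of all regions. Gained and lost regions were also narrower, with median widths of 396 and 483 bp against 745 bp.

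Presence depended on the 40000-peak limit for many regions, and with 20000 peaks per library 2115 were gained and 2392 lost. Of the 3648 gained regions, 1104 (30.3%) had no deposited peak at all in any pro-B library and 1253 (34.3%) had a weaker one in all 4. Of the 3741 lost regions, 396 (10.6%) had no deposited peak in any small pre-B library and 558 (14.9%) had a weaker one in all 4. In the WT step, 2336 gained regions (64.0%) and 2420 lost regions (64.7%) showed the same full change, and 96.1% and 95.9% moved in the same direction. The opposite direction was seen in WT for 12 gained and 3 lost regions. These shares start from regions called in Mki67-/- libraries. When regions were joined over 16 libraries of both genotypes, 3726 were lost in Mki67-/- and 5582 in WT cells. Lost in both were 2408, which is 64.6% of the Mki67-/- set but 43.1% of the WT set. Gained regions numbered 3602 and 3758, with 2313 in both (64.2% and 61.5%).

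Of the 5 gained regions with the highest mean rank, 4 were present in every WT library of both stages. The highest lay between genes, 11928 bp from an end of Tapt1 (chr5:44162554-44163226), with deposited fold enrichments of 20.2, 20.9, 21.3 and 20.7 in small pre-B libraries 1 to 4. The next were near Spin1 (chr13:51064353-51065049), inside Dtx1 (chr5:120693897-120694710), a regulator of Notch signalling, and near Grasp (chr15:101235063-101236129). The fifth, inside Rnf213 (chr11:119434314-119434717), was in 3 of 4 WT pro-B and 4 of 4 WT small pre-B libraries. Each of the 5 had a weaker deposited peak in 3 or 4 Mki67-/- pro-B libraries. The highest-ranked lost regions were also lost in WT, where those at Pmf1 (chr3:88393934-88394583), Aqp1 (chr6:55338892-55339525), Gm29975 (chr15:27981795-27982141), Crygn (chr5:24749569-24750042) and near Tbc1d16 (chr11:119131917-119132683) were each in 4 WT pro-B and 0 WT small pre-B libraries. Each of these lost regions kept a weaker deposited peak in 2 or 3 of 4 Mki67-/- small pre-B libraries.

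Few promoters held a gained or lost region. Of 32585 RefSeq promoter windows of GRCm38.p6 (250 bases before to 50 after a start), 123 overlapped a gained region, 237 a lost region and 11182 a constant region. The sequences below give the 250 bases before the start of genes whose promoter held a gained region (Ccnd3, Il2ra and Ctss) or a lost one (Ptpn6 and Lck), written 5′ to 3′ on the gene's strand. Capitals mark matches on either strand to CCCNNGGG (an Ebf1 core), TGGGAA (Ikaros), GAANNGAAA (an Ets site beside an Irf site), GTAAACA (Foxo) and TGTGGT (Runx). Ccnd3 encodes cyclin D3 of pre-B cells, Il2ra the CD25 chain that marks small pre-B cells, Ctss a protease of antigen presentation, Ptpn6 the phosphatase SHP-1 and Lck a Src-family kinase best known in T cells. Il2ra, Ctss and Lck were chosen after their values were seen.
Ccnd3, chr17:47504801-47505050, plus strand: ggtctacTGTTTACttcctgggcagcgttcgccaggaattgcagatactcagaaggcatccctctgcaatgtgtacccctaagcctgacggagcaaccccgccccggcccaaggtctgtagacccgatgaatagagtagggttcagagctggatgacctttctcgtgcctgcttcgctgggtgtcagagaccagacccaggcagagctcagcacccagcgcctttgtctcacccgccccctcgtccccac
Il2ra, chr2:11642542-11642791, plus strand: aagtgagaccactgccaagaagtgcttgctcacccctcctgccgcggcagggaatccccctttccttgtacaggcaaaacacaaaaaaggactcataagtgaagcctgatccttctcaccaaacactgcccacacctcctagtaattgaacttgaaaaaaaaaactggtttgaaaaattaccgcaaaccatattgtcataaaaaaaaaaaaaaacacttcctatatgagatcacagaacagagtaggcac
Ctss, chr3:95526536-95526785, plus strand: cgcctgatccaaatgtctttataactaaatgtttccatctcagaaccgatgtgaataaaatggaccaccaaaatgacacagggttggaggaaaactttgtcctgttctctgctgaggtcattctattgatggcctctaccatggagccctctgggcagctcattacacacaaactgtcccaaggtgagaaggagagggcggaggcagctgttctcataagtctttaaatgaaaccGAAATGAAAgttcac
Ptpn6, chr6:124738710-124738959, minus strand: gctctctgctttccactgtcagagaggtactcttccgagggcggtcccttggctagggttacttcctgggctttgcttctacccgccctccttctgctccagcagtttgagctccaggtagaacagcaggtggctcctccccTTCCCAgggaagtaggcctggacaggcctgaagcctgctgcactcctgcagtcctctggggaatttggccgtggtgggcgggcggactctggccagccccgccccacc
Lck, chr4:129573642-129573891, minus strand: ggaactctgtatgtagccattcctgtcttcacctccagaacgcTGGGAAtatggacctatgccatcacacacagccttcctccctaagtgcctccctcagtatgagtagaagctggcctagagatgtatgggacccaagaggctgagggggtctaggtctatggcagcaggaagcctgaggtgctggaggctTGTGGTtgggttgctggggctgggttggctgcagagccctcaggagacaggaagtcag

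Each of these promoters differed in all 4 libraries of each stage. The gained regions at Ccnd3 (chr17:47504919-47505243), Il2ra (chr2:11641972-11642886) and Ctss (chr3:95526622-95526965) had a weaker deposited peak in 4 of 4 pro-B libraries. The lost region at Ptpn6 (chr6:124738493-124739008) had one in 3 of 4 small pre-B libraries, and the lost region at Lck (chr4:129573513-129573812) had none. Matches were found in 4 of the 5 sequences and none in Il2ra. The Ctss sequence held GAANNGAAA 15 bases before its start, and the Lck sequence held TGGGAA 207 and TGTGGT 58 bases before it. A match is only a run of letters: GGAA, the Ets core that also lies within TGGGAA, was in 95.9% of gained and 96.0% of all promoter windows.

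The shares of promoters holding each motif were counted on both strands. CCCNNGGG was in 27.6% of promoters with a gained region, 20.7% with a lost region, 18.4% with a constant region and 13.8% of all windows. TGGGAA was in 22%, 36.3%, 21.5% and 25.4%, in the same order. CANNTG, the E-box, was in 74.0%, 71.3%, 61.8% and 72.3%, and GAANNGAAA in 10.6%, 8.86%, 5.59% and 7.56%. GTAAACA was in 2.44%, 2.11%, 2.40% and 3.67%, and TGTGGT in 17.1%, 15.6%, 12% and 16.6%. These shares are descriptions, and median GC content also differed (55% gained, 56% lost, 62% constant, 53% all).

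Over genes, peaks were counted in each library and compared on the log2(peaks + 1) scale with limma, which understates the change of genes with few peaks. Of 15389 genes tested, 1220 had more peaks in small pre-B cells (7.93%) and 1208 had fewer (7.85%) at a Benjamini-Hochberg adjusted p under 0.05. The shift was most often small: 469 of the 1220 differed by a mean of 2 peaks or more, as did 362 of the 1208. For 903 of the 2428 genes the libraries held the same number within each of both stages, so for such genes only counts are given below. With all deposited peaks, 538 genes had more and 1552 fewer. Of the main calls, 258 of the 1220 and 264 of the 1208 passed again in the same direction with all deposited peaks. Among the 20000 strongest peaks, 287 and 180 did. The genes with fewer numbered 792 without pro-B 3 and 781 without pro-B 4. An exact permutation test per gene called 0 genes (smallest adjusted p = 0.182), with 1195 higher and 1215 lower at an unadjusted p under 0.05. By direction alone, among only the 20000 strongest peaks, 657 of the 1220 genes kept more peaks and 152 had fewer. Another 266 showed no difference and 145 were not tested. Of the 1208, 477 kept fewer and 138 had more, 263 showed no difference and 330 were not tested.

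Genes that regulate the pre-B stage changed in both directions: 7 of 20 had more peaks and 3 had fewer (median log2 difference 0.02, against 0 over all genes tested, of which 7.93% had more and 7.85% fewer). Ikzf3, which encodes Aiolos, held 9, 8, 9 and 9 peaks in pro-B libraries and 14, 11, 14 and 14 in small pre-B libraries. Its log2 difference was 0.54 ± 0.0863 (SE; limma adjusted p = 0.00582), and the stages did not overlap. Cxcr4, the CXCL12 receptor that keeps small pre-B cells in their niche, held 3 peaks in every pro-B library and 6, 5, 5 and 5 in small pre-B libraries. The difference for Cxcr4 was 0.64 ± 0.0539 (limma adjusted p = 0.000215), and there was none when the window was cut to 2 kb on each side. Its 2 gained regions lay 4.518 kb (chr1:128583264-128583681) and 9.766 kb (chr1:128602065-128602589) outside the gene, and neither had a deposited peak in any pro-B library. Irf4, a factor that drives light-chain recombination, held 4 peaks in every pro-B library and 6, 6, 5 and 6 in small pre-B libraries (0.43 ± 0.054, limma adjusted p = 0.00196), but among the 20000 strongest peaks it differed by -0.90.

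Spib, an Ets-family factor of B cells, rose from 6 peaks in every pro-B library to 9, 9, 8 and 7 (0.40 ± 0.0744, limma adjusted p = 0.0122). Bcl6, a repressor that protects cells during light-chain recombination, rose from 4 in each to 6, 5, 5 and 5 (limma adjusted p = 0.00735). Genes with fewer peaks included Zbtb20, with 9, 8, 8 and 8 peaks against 3, 5, 5 and 5 (-0.77 ± 0.146, limma adjusted p = 0.013). Its 3 lost regions, at chr16:42907146-42907754, chr16:43376715-43377268 and chr16:43624707-43625303, had pro-B fold enrichments of 15.7 to 29.4, and each kept a weaker deposited peak in 3 of 4 small pre-B libraries. Foxo1, an activator of the Rag genes, held 7, 6, 7 and 7 peaks against 5, 5, 5 and 7 and did not pass (limma adjusted p = 0.182), nor did Bach2 (13 to 15 against 12 to 13, limma adjusted p = 0.125). Foxo1 passed without small pre-B 4 (-0.37, limma adjusted p = 0.00929), and Bach2 among the 20000 strongest peaks (-0.29, limma adjusted p = 0.0276).

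The direction of other regulators depended on the peak list or window. Foxp1 held 34, 36, 33 and 35 peaks in pro-B libraries and 44, 43, 45 and 44 in small pre-B libraries, a rise of 0.34 ± 0.0284 (limma adjusted p = 0.000198) that became -0.015 with all deposited peaks. Foxo3 fell by 0.33 (limma adjusted p = 0.0231) but was at 0.13 among the 20000 strongest. Tcf4, an E protein, rose by 0.33 (limma adjusted p = 0.0254) and was at -0.061 and -0.43 in those other lists. Klf2, a factor of quiescent lymphocytes, held 3 peaks in every pro-B library and 2 in every small pre-B library, but its difference was 0.15 in the narrower window.

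Of 22 genes of pre-B and B-cell receptor signalling, 7 had more peaks and 0 fewer (median 0.10), against 7.93% and 7.85% of all genes tested. Rasgrp1, an activator of Ras, held 3, 4, 2 and 4 peaks in pro-B libraries and 7, 6, 7 and 6 in small pre-B libraries (0.85 ± 0.178, limma adjusted p = 0.0205). Ralgps2, an activator of the GTPase Ral, held 3 in each pro-B library and 8, 6, 7 and 5 in small pre-B libraries (0.89 ± 0.122, limma adjusted p = 0.00311). Rasgrp3 held 3, 4, 4 and 4 peaks against 5, 6, 5 and 5, and the inhibitory receptor gene Cd22 held 4 in each against 6, 5, 5 and 5. Blk, a Src-family kinase, held 4 in each pro-B library against 6, 7, 7 and 7, but was at -0.10 with all deposited peaks. The kinase Syk rose by 0.24 and the adaptor Pik3ap1 by 0.21, but Syk showed no difference among the 20000 strongest peaks and Pik3ap1 was at -0.14 with all deposited peaks. Their 22 genes together held 147 to 151 peaks per pro-B library and 155 to 171 per small pre-B library.

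None of the 10 genes of the surrogate light chain and early markers passed (median -0.06), against 7.93% with more and 7.85% with fewer of all genes tested. Vpreb1 and Igll1 encode the surrogate light chain. Vpreb1 held 5, 7, 5 and 5 peaks against 3, 4, 4 and 4 (-0.45, limma adjusted p = 0.0692), Vpreb2 5, 4, 4 and 4 against 3, 4, 4 and 3, and Igll1 6, 8, 6 and 5 against 4, 6, 5 and 6 (limma adjusted p = 0.527). The windows of Vpreb1 and Igll1 overlap, so they share peaks. Among the 20000 strongest peaks, both passed with -0.90 (limma adjusted p = 0.00123). In WT the means went from 5.75 to 3 at Vpreb1, from 4.25 to 1.5 at Vpreb2 and from 6.5 to 4 at Igll1. Il2ra, whose promoter region was gained, held 7, 8, 5 and 5 peaks over the whole gene window against 8, 7, 7 and 8 and did not pass (limma adjusted p = 0.371).

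The genes of V(D)J recombination did not pass either: 0 of 15 in each direction (median 0.15), against 7.93% with more and 7.85% with fewer of all genes tested. Rag1 held 2 peaks in every library of both stages, and Rag2 held 2, 2, 3 and 2 against 4, 3, 2 and 2 (limma adjusted p = 0.656). With all deposited peaks, however, Rag2 passed with a rise of 0.36 (limma adjusted p = 0.0359).

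Of 15 B-lineage factors, 2 had more peaks and 2 fewer (median 0.10), counts close to the 7.93% and 7.85% of all genes tested, so they are no result about the list. Pax5, the factor that commits cells to the B lineage, held 13, 12, 12 and 13 peaks against 9, 9, 10 and 9 (-0.40 ± 0.0449, limma adjusted p = 0.00115), but among the 20000 strongest peaks its difference was 0.29. Runx1 fell from 15, 16, 15 and 17 peaks to 14, 12, 11 and 13 (-0.31, limma adjusted p = 0.0401), and its WT means were 15 and 8.5. Bcl11a rose from 5, 5, 5 and 6 peaks to 8, 7, 7 and 7 (0.40, limma adjusted p = 0.00735), and Ets1 from 10, 10, 10 and 9 to 12, 11, 12 and 12 (0.25, limma adjusted p = 0.00911). Ebf1, which specifies the lineage with Pax5, held 16 to 19 peaks against 15 to 18 (limma adjusted p = 0.937).

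For IL-7 receptor signalling, 2 of 20 genes had more peaks and 0 fewer (median 0.06), against 7.93% and 7.85% of all genes tested. These were Socs1, an inhibitor of cytokine signalling, with 2 peaks in every pro-B and 3 in every small pre-B library, and Mcl1, a survival factor, with 4, 4, 4 and 3 against 7, 5, 5 and 6. Socs1 was at -0.080 with all deposited peaks, and Mcl1 at -0.16 among the 20000 strongest. Il7r, the receptor chain, held 2, 3, 3 and 2 against 3, 2, 3 and 2 (limma adjusted p = 1). It passed with more peaks in small pre-B cells in both other lists, by 0.53 with all deposited peaks (limma adjusted p = 0.0309) and by 1 among the 20000 strongest, where its counts had no spread within a stage.

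Of 30 genes of DNA replication and cell division, 3 had more peaks and 2 fewer (median 0), and of 16 genes of cell-cycle exit 1 had more (median 0.15), counts near the 7.93% and 7.85% of all genes tested. Plk1, a mitotic kinase, held 2, 2, 2 and 3 peaks against 1 in each small pre-B library, and Tyms, which makes thymidylate, held 3, 2, 2 and 2 against 1 in each (-0.69 for each, limma adjusted p = 0.00407). Ccnd3, whose promoter region was gained, held 15, 15, 14 and 16 peaks over its whole window against 13, 14, 13 and 12 (-0.19, limma adjusted p = 0.0667). It passed with fewer peaks without small pre-B 2 (-0.23, limma adjusted p = 0.0391) and among the 20000 strongest peaks (-0.42, with no spread within a stage). Myc held 3 in each against 4, 3, 3 and 3 (limma adjusted p = 0.585). Mcm7, a subunit of the replicative helicase, and Cdc6, which loads it, each held 3, 4, 3 and 4 peaks against 5 in every small pre-B library (limma adjusted p = 0.0216), but Cdc6 was at -0.21 among the 20000 strongest and -0.16 with all deposited peaks. Aurkb, a mitotic kinase, held 8 in each pro-B and 9 in each small pre-B library, but was at -0.14 with all deposited peaks. The cycle-exit gene was Cdkn1c, an inhibitor of cyclin-dependent kinases, with 1 peak in each pro-B and 2 in each small pre-B library, and at -0.038 with all deposited peaks.

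Of 25 genes of later B-cell stages, 4 had more peaks and none passed with fewer (median 0.10), against 7.93% and 7.85% of all genes tested. Cd40, a receptor for T-cell help, held 2 peaks in every pro-B library and 4 in every small pre-B library. Its 2 gained regions were at chr2:165056376-165056686 and chr2:165061593-165061985, and had a weaker deposited peak in 3 and 2 of 4 pro-B libraries. Ciita, the regulator of MHC class II genes, held 5, 4, 4 and 4 peaks against 9, 7, 8 and 7 (0.74 ± 0.0985, limma adjusted p = 0.00275). Fcrla, an Fc receptor-like gene of B cells, held 4 in each against 7, 6, 6 and 5, and Tnfrsf13b, which encodes the receptor TACI, held 3 in each against 5, 5, 4 and 5, but Tnfrsf13b was at -0.31 among the 20000 strongest. Together the 25 genes held 85 to 89 peaks per pro-B library and 98 to 103 per small pre-B library.

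**Figure D4:**
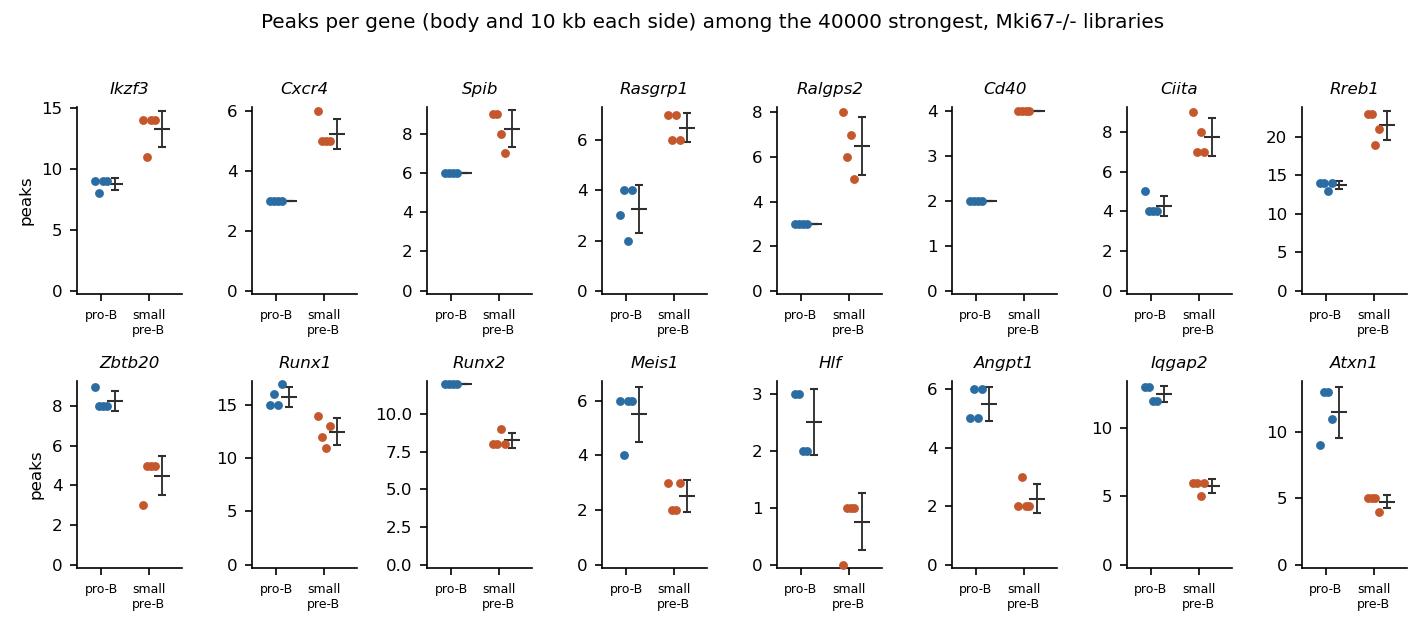
Peaks per library (points) with mean ± SD of 4 libraries for 16 genes, 8 with more peaks in small pre-B cells and 8 with fewer. Ikzf3 went from 8 to 9 peaks up to 11 to 14, and Iqgap2 from 12 to 13 down to 5 to 6.

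Of 16 stem- and progenitor-cell genes tested, 4 had fewer peaks and 0 more (median -0.27), against 7.85% and 7.93% of all genes tested. Meis1, a homeobox factor of stem cells, held 6, 4, 6 and 6 peaks against 3, 2, 2 and 3 (-0.89 ± 0.165, limma adjusted p = 0.0112). Hlf, another stem-cell factor, held 3, 3, 2 and 2 against 0, 1, 1 and 1 (-1.04 ± 0.269, limma adjusted p = 0.0461). Msi2, an RNA-binding protein, fell by 0.28 and Angpt1, a ligand of the receptor Tie2, by 1.01, but among the 20000 strongest peaks Msi2 was at 0.031 and Angpt1 at 0.50. The list held 69 to 77 peaks in all per pro-B library and 52 to 59 per small pre-B library, so the ranges did not overlap. Cd34 held 0 or 1 peak in every library and Tek none, and the part of early progenitor cells in these counts was not tested.

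Of 26 genes of chromatin and chromosome structure, 1 had more peaks and 2 fewer (median 0), against 7.93% and 7.85% of all genes tested. Hmga2, an architectural protein of early progenitors, held 3, 4, 4 and 4 peaks against 1, 2, 2 and 2 (-0.80, limma adjusted p = 0.017). Stag2, a cohesin subunit, held 3 in each against 1, 2, 1 and 2, but was at 0.015 with all deposited peaks. Lbr, which tethers heterochromatin to the nuclear envelope, held 1 in each against 2 in each, but was at -0.080 with all deposited peaks. Ctcf, the boundary factor, held 3 peaks in every library.

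Markers of other cell types are given for every list examined. Each count stands against the 7.93% of all genes tested that had more peaks and the 7.85% that had fewer. Of 20 T- and NK-cell genes, 15 were tested and none passed (median -0.15), with 42 to 47 peaks in all per pro-B library and 35 to 42 per small pre-B library. Of 20 myeloid genes, 14 were tested, 4 had more peaks and 1 fewer (median 0.05), and the sums were 28 to 31 and 34 to 38. The 4 were Cebpb (2, 3, 3 and 3 peaks against 5, 5, 6 and 5), Csf1r (1 in each against 3 in each), Csf3r (1 against 2 in each) and Adgre1 (0 in each against 2, 2, 2 and 1), and the 1 with fewer was Mpo (1 against 0 in each). The neutrophil and macrophage genes Ly6g, Lyz2, S100a8, S100a9, Camp and Ctsg held no peak in any library. Other myeloid genes of the list held peaks in both stages without passing, such as Elane and Prtn3 (2 to 3 in every library), Fcgr3 (3 to 5) and Itgam (4, 4, 3 and 4 against 7, 7, 7 and 4). The part of myeloid cells in these counts was not tested. Of 16 erythroid genes, 12 were tested and none passed (sums of 36 to 38 and 35 to 38). Of 16 plasmacytoid dendritic cell genes, 13 were tested, with 2 more (Spib and Tcf4, described above with its changes of sign) and 1 fewer (Runx2, 12 in each against 8, 8, 9 and 8), and sums of 59 to 60 and 63 to 69. Of 10 plasma-cell genes, 2 had more (Irf4, described above with its change of sign, and Mzb1, 3 against 4 in each) and 1 had fewer (Fkbp11, 1 against 0 in each), with sums of 29 to 31 and 33 to 37.

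**Figure D5:**
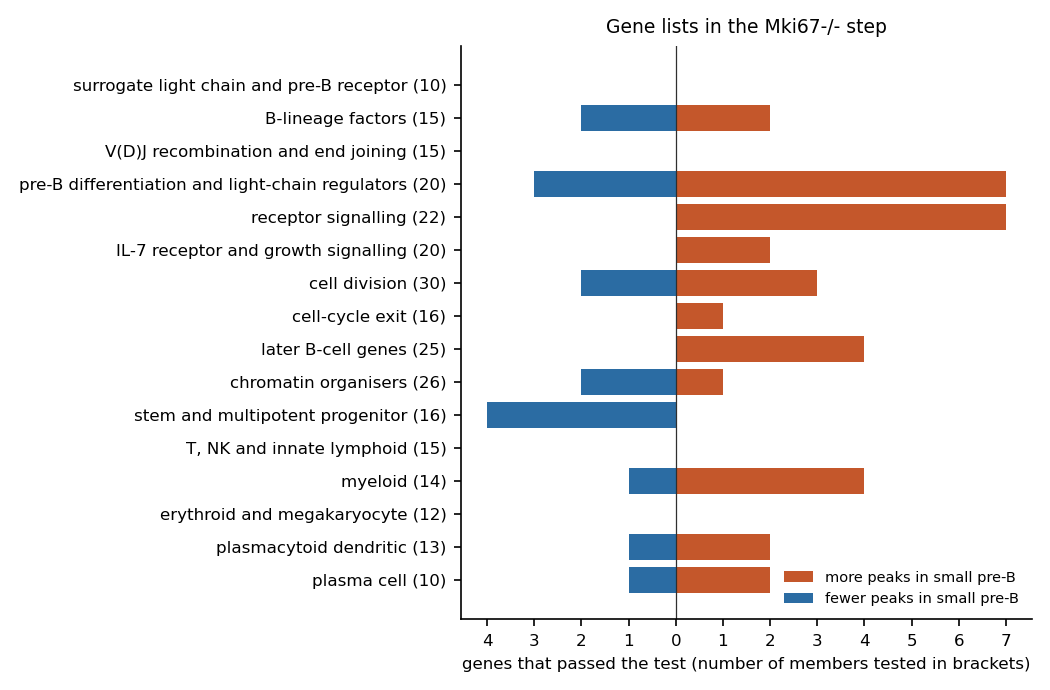
Number of genes in each of 16 gene lists with more peaks (right) or fewer peaks (left) in Mki67-/- small pre-B than pro-B libraries, with the number of genes tested. Pre-B regulators had 7 more and 3 fewer of 20, receptor signalling 7 and 0 of 22, and stem-cell genes 0 and 4 of 16. Other lists lay nearer the shares over all genes tested (7.93% more and 7.85% fewer), such as cell division with 3 and 2 of 30. No list was tested as a set.

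The genes of lowest adjusted p mostly held the same low number in every library of a stage. Trim38 held 0 peaks in every pro-B and 3 in every small pre-B library, while Cntn1, Pilra and Spz1 went from 0 in each to 2 in each. Fgfr4 and Slc6a20b did the same, but were at -0.080 and -0.10 with all deposited peaks. Cidea, Col6a4, Ednrb, Epha5, Nrxn3, Galnt9, Serpinb12, Tnip3 and Olfr1395 went from 2 in each to 0 in each. Among the genes with the largest differences in peaks, chosen after their values were seen, were Foxp1, described above with its change of sign, and genes outside the lists. Rreb1, a zinc-finger factor downstream of Ras, held 14, 14, 13 and 14 peaks in pro-B libraries and 23, 23, 19 and 21 in small pre-B libraries. Cdkal1, a tRNA-modifying enzyme, held 7, 8, 7 and 9 against 16, 16, 17 and 14. Recql5, a DNA helicase, held 6, 5, 5 and 4 against 14, 13, 11 and 12. Rreb1, Cdkal1 and Recql5 (limma adjusted p from 0.000532 to 0.00091) were taken from genes that had already passed, for their large differences. Their small p and the lack of overlap between stages therefore add no support. Of all 1220 genes with more peaks, 1154 had no overlap between the stages. The large losses below were chosen in the same way.

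Losses of similar size were seen at Iqgap2, a scaffold protein of the cytoskeleton, with 13, 13, 12 and 12 peaks against 6, 6, 5 and 6 (-1 ± 0.0617, limma adjusted p = 3.25e-05). Atxn1 held 9, 13, 13 and 11 against 5, 5, 5 and 4. Ephb2, an ephrin receptor, held 10, 9, 11 and 9 against 3, 3, 4 and 4, and Nfia, a nuclear factor I gene, 19, 19, 21 and 21 against 12, 14, 13 and 14. Amotl1, an angiomotin-like protein, held 6, 5, 6 and 7 against 1 in each small pre-B library (-1.80, limma adjusted p = 5.09e-06). Slc39a11, a zinc transporter, fell from 20 to 22 peaks to 10 to 15, and Snx29 from 28 to 31 to 19 to 27 (limma adjusted p = 0.0495). Hivep3 fell from 25 to 31 peaks to 20 to 22, but among the 20000 strongest its difference was 0.14.

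Few genes passed a test of the difference between the Mki67-/- step and the WT step. With 4 libraries a group, this does not show that the steps were equal at the other genes. Of 15740 genes tested for this difference with limma, 158 passed (1.00%), 97 with a higher and 61 with a lower step in Mki67-/- cells, and 1408 had an unadjusted p under 0.05. Of the 1220 genes with more peaks, 1166 also had a higher WT mean in small pre-B cells and 27 a lower one, and of the 1208 with fewer, 1143 were also lower in WT and 30 higher. None of the 158 passed with all deposited peaks and 5 passed among the 20000 strongest, and without small pre-B 1 the count was 255. Of the members of the 16 lists, 2 passed, Aurkb and Fcgr3, an Fc receptor gene. Aurkb, with WT means of 9 and 8.75 peaks, varied only among the WT small pre-B libraries. Its limma adjusted p of 0.0277 became 0.472 when the spread was kept from falling below the rounding of whole counts, a setting chosen after seeing the data. Fcgr3 went from 4.25 ± 0.5 to 3.75 ± 0.5 peaks in Mki67-/- and from 4.25 to 2 in WT cells (limma adjusted p = 0.0167). At Runx1, whose WT means were further apart, the difference did not pass (limma adjusted p = 0.113). WT Dtx1 held 9.5 and 10 peaks, against 6.25 ± 0.5 and 10.25 ± 0.957 in Mki67-/- cells (limma adjusted p = 0.175 for the difference).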

How the data were processed

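The 8 Mki67-/- libraries and the 8 WT libraries of the same stages were used, the pre-pro-B libraries were not. Per the submitters' processing notes, the authors used Trimmomatic, MACS2, deepTools, DiffBind and DESeq2 on build mm10; versions, parameters and read filters are not given in the sources used here, so which tool made which step beyond the peak lists is not stated. Each library had its own deposited peak list, with a fold enrichment ratio and the -log10 of a q-value per peak, as deposited by the authors. These are not read counts and the total reads of a library are unknown; the background coverage was recovered from the deposited ratio and -log10 p-value of 3000 peaks per library. Overlapping entries on chromosomes 1 to 19 and X were merged and the 40000 peaks with the highest -log10 q were kept, which fixes the number of peaks but not their depth: shallow libraries reach weaker peaks. Presence of a region needed an overlap of 1 bp.

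Peaks were counted per gene (21627 coding genes of RefSeq GRCm38.p6, body and 10 kb each side) and compared as log2(peaks + 1) with limma 3.58.1 (R 4.3.3), for genes with a peak in at least 4 of 8 libraries, at an adjusted p of 0.05. Genes whose windows overlap share peaks. A gene with no spread within either stage gets a very small p from this fit, so none is printed. Locus counts were compared by two-sided exact permutation tests (scipy 1.17.1; Python 3.11.15, numpy 2.4.6, pandas 2.3.3, matplotlib 3.10.9), and the difference between steps by permutation within stages. The limma step was tested on simulated random (Poisson) counts. These do not mimic genes without spread within a stage, so the simulation does not check the calls of such genes. The 16 lists (299 entries, 1 matched by a synonym), the genes and the tests were chosen with earlier results of these data known. Named are Mki67, 16 genes of the stage whatever their values, up to 4 members per list and direction, the 12 genes per direction of smallest p, the 6 per direction of smallest p for the genotype difference, and the 5 regions per direction of highest rank; a few items that this rule names are not reported here, and further genes are said to be chosen after their values were seen. Alternatives were other peak numbers, windows, merges, scales, covariates, blocks and left-out libraries. Replicate numbers were checked for pairing by the correlation of deviations from the group means, and they did not pair the libraries.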

Additional observations from a re-analysis of the deposited data

Results flagged for a closer look

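Values far from the rest of their group of 4 were found for 2 quantities; among 220 groups checked, chance would give about 1 in 20. The share of the 40000 peaks that lay in gene bodies was 38.56% in Mki67-/- pro-B 1 and 38.28% to 38.32% in the other 3 pro-B libraries. Ikzf3, which encodes Aiolos, held 11 peaks in Mki67-/- small pre-B 2 and 14 in the other 3 small pre-B libraries, still above the 8 to 9 of the pro-B libraries.

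The genes with the smallest p for a difference between the Mki67-/- step and the WT step (limma) all held the same number of peaks in every library of each group, so their p-values are not given. The Mki67-/- step was higher by 1 on the log2(peaks + 1) scale at 6 genes. Myh7, a cardiac myosin, went from 2 peaks to 1 in Mki67-/- and from 2 to 0 in WT cells. At 4930578I06Rik, Il18bp, Mog and Rnase10 it was 1 and 1 against 1 and 0 in WT, and at C1qtnf4 0 and 1 against 1 and 1. The Mki67-/- step was lower, by -1.17, at Abcc5, a transporter, with 2 and 1 peaks against 1 and 2 in WT. It was lower by -0.58 at Dhrs3 (2 and 1 against 1 and 1) and at Cstf2, Dynlrb1 and Gnb1l (1 and 1 against 1 and 2). Each of these differences rests on 1 or 2 peaks, and none of the 158 genes called for this difference passed with all deposited peaks.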

How the results depend on the processing

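The number of genes with more peaks was 538 with all deposited peaks, 704 with a replicate block by the deposited numbers, 1958 with a floor on the spread and 0 by the exact permutation test; genes with fewer were 623 with that block, 1950 with the floor and 0 by the exact permutation test. Leaving out 1 library gave 989 to 1248 genes with more and 781 to 1262 with fewer, the fewest without Mki67-/- pro-B 4 (781) and pro-B 3 (792). The floor on the spread and the coverage covariate were chosen after seeing the data. Genes whose step differed by genotype numbered 39 with all deposited peaks, 58 with the floor and 154 to 255 with 1 library left out, the most without Mki67-/- small pre-B 1. With the 20000 strongest peaks, gained regions were 2115 and lost regions 2392, Igk rose by 55.5 peaks and Igh changed by -18.75 (permutation adjusted p = 0.0857 for each).

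Replicate numbers did not pair the libraries: correlations of deviations were 0.012, -0.024, -0.010 and 0.019 for the label numbers, and 0.012, 0.022 and 0.027 for the numbers in the deposited names. With the replicate block, Igk rose by 127 and Igh changed by -60.5 peaks, at an adjusted permutation p = 0.15, where 4 pairs cannot go below 0.125 before adjustment. The block by label number called 948 genes with more and 957 with fewer.

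Directions turned among the 20000 strongest peaks at Pax5 (0.29), Irf4 (-0.90), Foxo3 (0.13), Tcf4 (-0.061), Mcl1 (-0.16), Cdc6 (-0.21), Tnfrsf13b (-0.31), Msi2 (0.031), Angpt1 (0.50) and Hivep3 (0.14). They turned with all deposited peaks, which shift the median gene by -0.10, at Foxp1 (-0.015), Tcf4 (-0.43), Blk (-0.10), Pik3ap1 (-0.14), Socs1 (-0.080), Aurkb (-0.14), Cdc6 (-0.16), Cdkn1c (-0.038), Stag2 (0.015), Lbr (-0.080), Fgfr4 (-0.080) and Slc6a20b (-0.10), and with 2 kb windows at Klf2 (0.15). The small difference in the share of peaks at gene ends turned to -0.0504 without Mki67-/- pro-B 1 and -0.164 without small pre-B 1, from 0.0569 percentage points, and reached 0.191 with 1 other library left out. The cause was not tested. Of 97 named genes, 33 kept direction and call with all deposited peaks and 84 with entries within 100 bp merged.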
